A study of Mus musculus with 18 samples.

Results

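Gene expression in motor cortex astrocytes was compared between expert mice, which had completed training on a skilled forelimb task, and novice mice at an early point of the same training. All genes with at least 5 FPKM (fragments scaled to transcript length and library size, as deposited) in at least 6 of the 12 novice and expert libraries were examined, which gave 9654 of the 23924 genes read. The sixth highest value lay just above the limit in Sv2c (5.0011 FPKM), Zcchc2 and Urgcp, and just below it in F2r, Tmem110 and Syt12 (4.9998 FPKM). Each group had 6 libraries from water-restricted C57BL/6 mice with no allele or transgene named in the labels. Novice mice had trained for 3 days on a cued lever push and were 11 to 13 weeks old, and expert mice were fully trained and 13 to 15 weeks old. Naive mice, untrained and 12 to 21 weeks old, entered the fit as the third group and are given for reference. Each group had 2 libraries labelled female and 4 labelled male. The sources used here do not give how the astrocytes were isolated or whether libraries and animals match 1 to 1, so p-values measure the spread between libraries.

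Astrocytes take up glutamate and GABA released at synapses, buffer potassium and water, supply lactate, lipids and cholesterol to neurons, and secrete proteins that shape synapses. Their identity is maintained by transcription factors such as Sox9 and by Notch signalling, in which a cleaved receptor joins the DNA-binding protein Rbpj to switch on Hes and Hey genes. In the motor cortex, learning a movement is accompanied by the growth and loss of synaptic spines, and the comparison asks how the astrocyte transcriptome of mice that have acquired the skill differs from that of mice that are beginning to learn it.

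The libraries carried the labelled cell type. Summed over 33 astrocyte identity genes, novice libraries held 5368 to 12496 FPKM and expert libraries 6483 to 24019. Summed neuron markers (15 genes) reached 193 to 1357 FPKM in novice and 213 to 1291 in expert, endothelial markers (15 genes) 206 to 485 and 323 to 868, and microglia and macrophage markers (13 genes) 80.8 to 104 and 39.7 to 95.3. The neuronal cytoplasmic RNA Bc1 made up 14.0 to 59.6% of the summed FPKM in novice and 6.76 to 46.4% in expert libraries. Among the marker lists, Mag, Tmem119, Foxj1, Tmem212, Pifo, Rsph1, Hbb-b1, S100a8 and S100a9 were at 0 in at least 1 of the 12 libraries.

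Several libraries stood apart, and the results are given with and without them. The mean over 1578 olfactory, vomeronasal and taste receptor, defensin and keratin-associated protein genes, families that brain cells seldom transcribe, was 4.69 ± 1.65 FPKM in novice (SD, n = 6), 2.97 ± 2.12 in expert and 3.71 ± 2.38 in naive libraries. This mean is called the silent-gene signal here. It was under 4 FPKM in 2 novice and 4 expert libraries and 4 FPKM or more in 4 novice and 2 expert libraries, and it was lowest in expert 3, at 0.307. Expert 3 also had the most genes at 0, with 5430 against 2257 to 4378 in the others, and the lowest FPKM for 1 fragment on 1 kb of transcript, 0.288, against 0.597 to 1.90. At 5 FPKM a transcript of 1 kb thus rested on 2.90 to 17.4 fragments in expert and 2.95 to 6.97 in novice libraries. Novice 1, labelled female, had 1.60 FPKM of the female-specific Xist and 12.6 of the Y-linked Ddx3y, and novice 3, labelled male, had 17.97 and 3.29, so both went against their labels. The first principal component of the 12 libraries held 46.5% of the variance.

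No gene passed the test of expert against novice. Of 21745 genes tested, 0 had an adjusted p under 0.05 (percent called 0), and the smallest adjusted p was 0.449 (limma, Benjamini-Hochberg adjustment over all genes tested). For no single gene was the difference, set against the spread between libraries, large enough to pass after adjustment for 21745 genes. At an unadjusted p under 0.05, 1061 genes (4.88%) were higher and 1299 (5.97%) lower in expert. Among the 9654 genes of the comparison, 962 (9.96%) were higher and 344 (3.56%) lower at that level. With libraries rescaled by the trimmed mean of M values, these counts were 1255 and 242, so that 83.8% rather than 73.7% of them were higher.

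The direction was uneven across the 9654 genes. A positive log2 fold change was found for 6012 (62.3%), with a median of 0.14, whereas the median over all genes tested was -0.14. Rescaling by the trimmed mean of M values moved these medians to 0.26 and -0.05, and quantile normalization to 0.13 and 0.04. Changes are read against this shift. With the silent-gene signal as a covariate, 5021 of the 9654 genes were positive and the median was 0.01. At an unadjusted p under 0.05 (limma), 3.68% were then higher and 1.67% lower. Within libraries under 4 FPKM of that signal the median was 0.05, with 7.78% higher and 6.22% lower. Within those at 4 FPKM or more it was 0.04, with 2.54% and 2.02%. List values in these settings are read against these. Genes at a mean of 20 to 50 FPKM were the most often higher (69.3% of 1392, median 0.28). Below 10 FPKM the share was 58.3% of 4748 genes and at 100 FPKM or more it was 54.7% of 386.

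**Figure D1:**
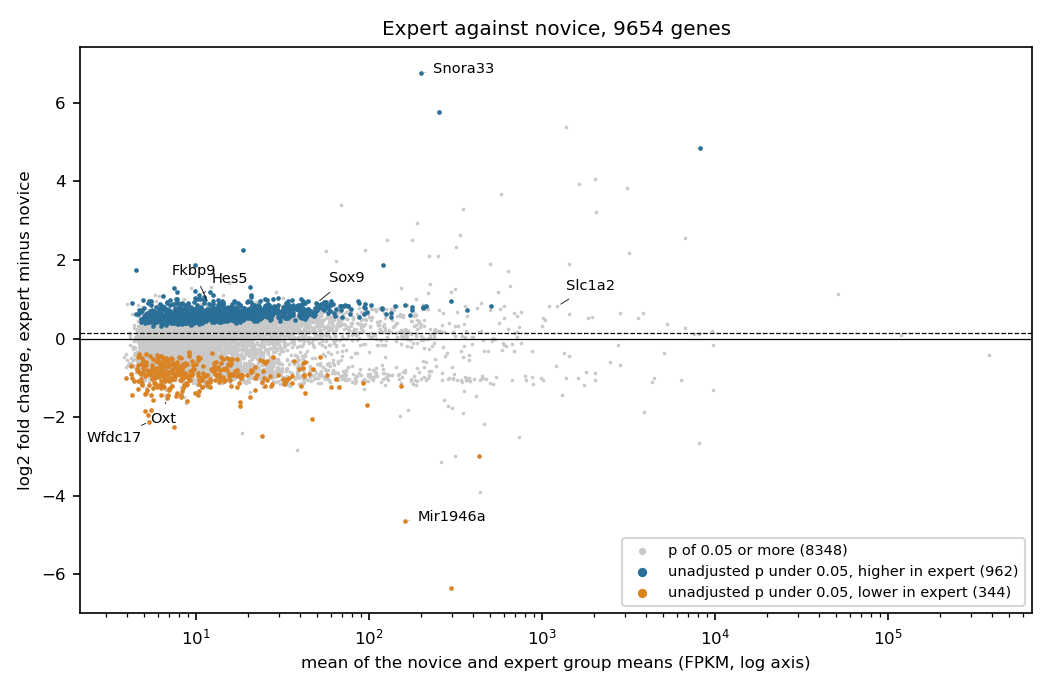
Log2 fold change of expert minus novice (y axis) against the mean of the novice and expert group means in FPKM (x axis, log scale) for 9654 genes, 1 point per gene. Blue and orange points have an unadjusted p under 0.05 (962 higher, 344 lower), the dashed line is the median of 0.14, and a second band of genes lies below the main cloud.

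Genes whose libraries separated fully were few. In 47 genes (0.487%) all 6 expert values lay above all 6 novice values, and in 11 (0.114%) all lay below. Among the 47 were Hes5 and Btbd17, Notch1, the cholesterol enzyme Fdft1, the axon guidance gene Rgma, the thyroid hormone transporter Slco1c1, the junction genes Tjp1, Ctnna1 and Cdh11, and Rela, a subunit of NF-kappaB. Of these, all but Hes5, Notch1 and Fdft1 were picked after their values were seen.

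The smallest p belonged to Fkbp9, a peptidyl-prolyl isomerase of the endoplasmic reticulum. Fkbp9 lay at 7.09 to 8.85 FPKM in novice (median 7.99) and at 10.2 to 20.9 in expert libraries (median 16.2). The groups did not overlap, and naive libraries fell between them with a mean of 10.8 ± 2.13. The log2 fold change was 0.87 (SE 0.18, unadjusted p = 9.6e-05, limma, adjusted p = 0.449).

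Tcf3, which encodes the E-protein partner of basic helix-loop-helix factors, was at 3.40 to 6.13 FPKM in novice (median 4.22) and 5.16 to 14.1 in expert (median 9.62), a log2 fold change of 0.99 (SE 0.21). Only expert 5 fell within the novice range. Tulp3, an adaptor for trafficking of receptors into the primary cilium, was at 3.41 to 6.02 FPKM in novice and 7.43 to 16.4 in expert, with no overlap and a log2 fold change of 0.91 (SE 0.21). Rnh1, the cytoplasmic ribonuclease inhibitor, did not overlap either, at 3.03 to 8.14 FPKM in novice and 9.15 to 14.0 in expert (log2 fold change 0.87, SE 0.23). Tmem109, a membrane protein, did not overlap at 6.36 to 9.99 and 10.3 to 25.3 FPKM (0.88, SE 0.21).

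The other protein-coding genes among those with the smallest p were Npepl1, an aminopeptidase-like gene (1.08, SE 0.26), Alpl, the tissue-nonspecific alkaline phosphatase (0.95, SE 0.22), the RNA-binding gene Raly (0.93, SE 0.23), the receptor phosphatase Ptprm (0.75, SE 0.18), Btbd7 (0.74, SE 0.19) and Dnm2, the ubiquitous dynamin of endocytosis (0.85, SE 0.22). In each of Npepl1, Alpl, Raly and Ptprm, 5 of 6 expert libraries exceeded the highest novice value, and in Btbd7 and Dnm2 4 of 6 did. The small nucleolar RNA Snora33 was listed at 0 in 5 novice libraries and at 376 FPKM in novice 4, against 77.5 to 504 in expert. For an RNA this short a few fragments make a large FPKM, and no fold is given.

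The folds of these genes were smaller, by differing amounts, with the silent-gene signal in the model. With the log2 silent-gene signal as a covariate, the log2 fold change of Fkbp9 was 0.73, Tcf3 0.78, Tulp3 0.72, Npepl1 0.84, Raly 0.75 and Rnh1 0.80, and over the 11 protein-coding genes it was 0.57 (Dnm2) to 0.84. In the libraries under 4 FPKM the values were 0.93, 1.004, 0.74, 0.88, 0.87 and 0.99, and in those at 4 FPKM or more 0.66, 0.68, 0.91, 0.95, 0.80 and 0.76, in the same order. The other genes of the 11 had smaller folds within libraries at 4 FPKM or more than over all libraries, at 0.70 for Alpl, 0.51 for Tmem109, 0.47 for Dnm2, 0.44 for Ptprm and 0.32 for Btbd7. All 11 genes were higher in expert under each of the 31 alternative settings. They were picked for a small p in these same libraries, so a kept direction was likely from the start and adds no support. The adjusted p of the comparison did not pass under the covariate either (smallest 0.896).

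**Figure D2:**
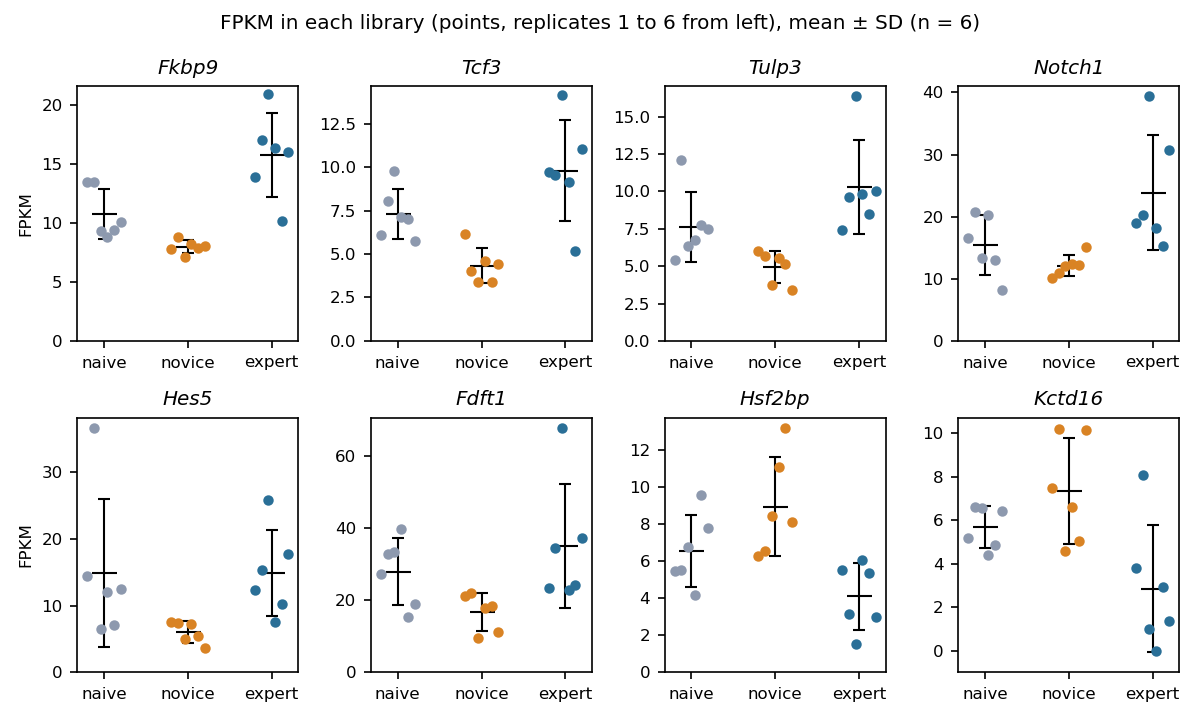
FPKM of 8 genes in each naive (grey), novice (orange) and expert (blue) library, with the group mean and SD (n = 6 each). Fkbp9, Tulp3, Notch1, Hes5 and Fdft1 show expert libraries above every novice library, Hsf2bp shows them below, and in Tcf3 and Kctd16 a single expert library falls in the novice range.

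Of the 344 genes lower in expert at an unadjusted p under 0.05, 209 had a mean under 10 FPKM. Hsf2bp, a partner of heat shock factor and of meiotic recombination, was at 6.30 to 13.2 FPKM in novice (median 8.29) and 1.53 to 6.10 in expert (median 4.28), without overlap, and its log2 fold change was -1.01 (SE 0.26, limma, unadjusted p = 0.0011, adjusted p = 0.449). Kctd16, an auxiliary subunit of GABA-B receptors, was at 4.56 to 10.2 FPKM in novice, and in expert it was 0 in replicate 4, 8.07 in replicate 2 and 0.973 to 3.801 in the others (-1.40, SE 0.38). Oxt, which encodes oxytocin, was at 2.91 to 19.6 FPKM in novice (median 9.97) and 0 to 5.56 in expert (median 3.25), and 3 of 6 expert libraries lay below the lowest novice value (-1.52, SE 0.44). Kctd16 and Oxt kept their size with the silent-gene covariate, at -1.48 and -1.35, while Hsf2bp was at -0.61.

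The other lower genes each overlapped between the groups. Wfdc17, a myeloid anti-protease, was 0 in 4 expert libraries, 5.08 and 9.49 FPKM in experts 4 and 5, and 3.69 to 13.2 in novice. Siglech, a microglial sialic acid receptor, was at 12.9 to 17.7 FPKM in novice and 4.02 to 15.4 in expert (-0.78, SE 0.25), with a log2 fold change of -0.44 with the silent-gene covariate and -0.37 within libraries at 4 FPKM or more. Epsti1 and Apol6, both known as interferon-inducible, had log2 fold changes of -1.29 (SE 0.42) and -1.14 (SE 0.37), and -0.64 and -0.55 with the silent-gene covariate. The others were the keratin Krt12 (-0.90), the kinase Map3k9 (-0.82), Lrrc61 (-0.65), the antisense transcript Frmpd1os, listed at 0 in 4 expert libraries and 1 novice library, and the microRNA gene Mir1946a, listed at 0 in 3 expert libraries and at 80.8 to 412 FPKM in novice. In microglia and macrophages as a whole, 4 of 13 tested markers were higher in expert and 9 lower. Only 3 of them passed the FPKM limit, and their median was -0.65, -0.03 with the covariate and 0.20 within libraries at 4 FPKM or more.

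Astrocyte identity genes were all higher in expert, and by more than the common shift. All 33 had a positive log2 fold change (0.42 to 1.004), 17 had an unadjusted p under 0.05 in the higher direction against 9.96% of all 9654 genes, and the median was 0.77 against 0.14. None had an adjusted p under 0.05. In bulk libraries more cells of a type and more RNA per cell cannot be told apart. Slc1a2, the main glutamate transporter, was at 518 to 1530 FPKM in novice (median 677) and 759 to 2708 in expert (median 1457), so that only 2 expert libraries lay above the novice range (log2 fold change 0.82, SE 0.50). Dio2, which activates thyroid hormone, was at 15.1 to 49.0 and 31.9 to 76.3 FPKM and had the largest fold of the list (SE 0.36). Slc7a10, a carrier of serine and glycine, was at 28.8 to 39.4 in novice and 39.1 to 148 in expert (0.83, SE 0.28). Aldh1l1, the folate enzyme used as a general astrocyte marker, was at 19.5 to 33.5 and 23.02 to 72.4 FPKM (0.50, SE 0.33).

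The size of this difference followed the silent-gene signal of the libraries. The mean log2(FPKM + 1) of the 33 genes in each library ran from 6.08 to 7.11 in novice and from 6.45 to 8.24 in expert, and the library with the lowest silent-gene signal, expert 3, had the highest value. With that signal as a covariate the median was 0.19, against 0.01 over all 9654 genes. Then 26 of 33 genes were higher and 5 had an unadjusted p under 0.05, against 3.68% of all 9654 in the higher direction. The median of the list was 0.56 within libraries under 4 FPKM, 0.36 within those at 4 FPKM or more, 0.54 without expert 3 and 0.45 without expert 3 and 6. Leaving out novice 1 and 3, whose sex labels did not match, gave 0.80. Whether the silent-gene signal brought about the difference was not tested.

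**Figure D3:**
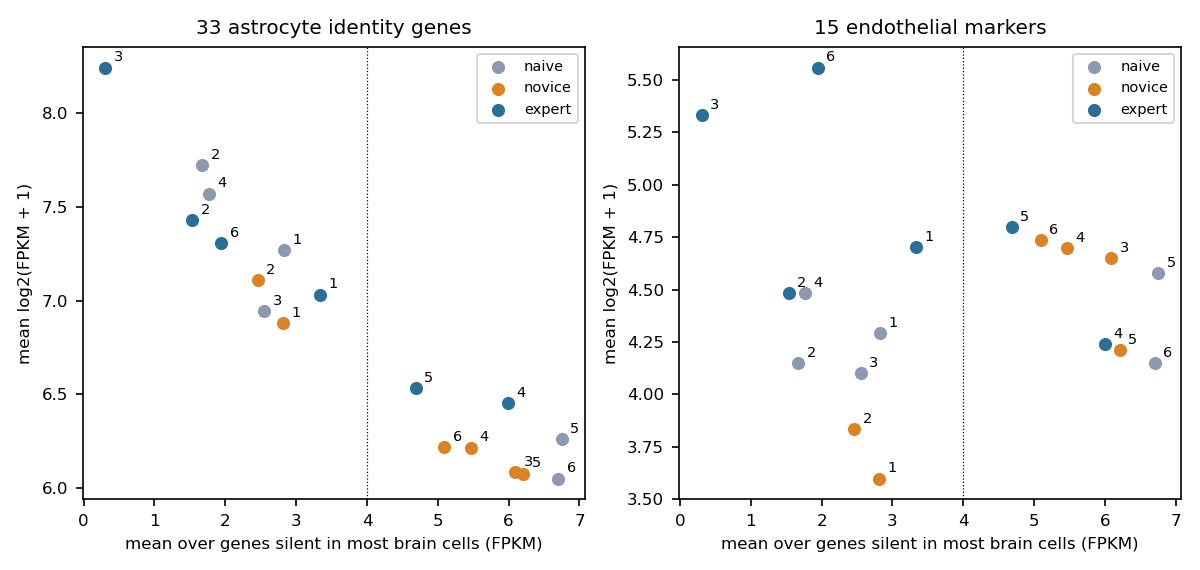
Mean log2(FPKM + 1) of 33 astrocyte identity genes (left) and of 15 endothelial markers (right) against the silent-gene signal in FPKM, 1 point per library, numbered by replicate, with a dotted line at 4 FPKM. Identity genes are lower where the signal is higher in all 3 groups, from 8.24 in expert 3 to 6.05 in naive 6, whereas endothelial markers are highest in expert 3 and 6.

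Transcription factors of the astrocyte lineage were higher in 15 of 18 cases (median 0.52, 4 with an unadjusted p under 0.05). Sox9, the factor that specifies astrocytes, was at 26.1 to 49.3 FPKM in novice and 40.4 to 114 in expert (0.90, SE 0.29). Zbtb20, a repressor with a role in astrocyte formation, was at 18.6 to 29.7 and 20.8 to 60.1 FPKM (0.69, SE 0.25). Of the other members Sox2 was at 0.84, while Id1, Hopx and Otx1 were between -0.09 and -0.06. The median of the list was 0.14 with the silent-gene covariate and 0.27 within either class of libraries.

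Notch and hedgehog genes were also mostly higher. Of 20 listed, 14 passed the FPKM limit, 13 of these were higher, and 8 had an unadjusted p under 0.05. Among receptors, Notch1 was at 10.1 to 15.0 FPKM in novice and 15.4 to 39.5 in expert without overlap (0.86, SE 0.24), and Notch2 at 6.07 to 8.87 and 7.29 to 19.3 (0.59, SE 0.20). With the silent-gene covariate these 2 folds were 0.57 and 0.41. They were 1.24 and 0.84 within libraries under 4 FPKM, and 0.35 and 0.22 within those at 4 FPKM or more. The ligand Jag1 had a log2 fold change of 0.53, the targets Hey1 and Hes1 0.77 and 0.49, and the hedgehog receptor Ptch1 0.66. Rbpj itself was at -0.14.

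Hes5, the Notch target that keeps neural progenitors and glia from neuronal fate, was at 3.67 to 7.57 FPKM in novice (median 6.33) and 7.59 to 25.8 in expert (median 13.9). The gap between the highest novice and the lowest expert library was narrow. Its log2 fold change was 1.11 (SE 0.34), 0.70 with the silent-gene covariate, 1.10 within libraries under 4 FPKM and 0.67 within those at 4 FPKM or more. Naive libraries spanned both groups, at 6.46 to 36.5 FPKM. The median of the 14 genes was 0.56, 0.33 with the covariate and 0.30 without expert 3 and 6. With the covariate 13 of the 14 were higher and 3 had an unadjusted p under 0.05 (limma).

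The Hes5 promoter is shown because Hes5 had the largest fold in the pathway and because its start region carries the letters to which Rbpj binds. The window runs from 250 bases before to 50 after the RefSeq start (GRCm38.p6, chr4:154960673-154960972, plus strand), with matches to GTGGGAA on either strand in capitals, at -226 and -83 from the start.
Hes5: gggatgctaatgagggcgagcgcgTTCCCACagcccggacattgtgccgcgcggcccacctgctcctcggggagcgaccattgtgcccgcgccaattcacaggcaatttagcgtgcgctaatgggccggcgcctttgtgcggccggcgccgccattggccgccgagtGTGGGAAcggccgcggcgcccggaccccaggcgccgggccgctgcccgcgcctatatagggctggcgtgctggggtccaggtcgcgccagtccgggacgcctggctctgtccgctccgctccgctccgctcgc
The same letters were found, on either strand, in 6.38% of 32851 promoter windows of equal length, and in 2 of the 11 Notch and hedgehog genes with a window, the other being Hey2. A match is a description of the letters and not a site shown to be bound.

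Genes for uptake and metabolism of transmitters were higher in 20 of 20 cases (median 0.66, 5 with an unadjusted p under 0.05). Slc6a11, the astrocyte GABA transporter GAT-3, was at 27.7 to 62.7 FPKM in novice and 42.1 to 164 in expert (0.95, SE 0.34). The metabotropic glutamate receptor Grm3 was at 24.5 to 65.6 and 37.4 to 129 FPKM (0.93, SE 0.39), and the glutamine carrier Slc38a3 at 36.7 to 57.8 and 57.1 to 189 (0.83, SE 0.31). Slc1a3 and Glul, which take up glutamate and convert it to glutamine, had log2 fold changes of 0.77 (SE 0.42) and 0.69 (SE 0.47). With the silent-gene covariate the median of the list was 0.09.

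Ion and water genes were higher in 18 of 18 cases (median 0.70, 11 with an unadjusted p under 0.05). Slc12a2, the sodium, potassium and chloride cotransporter NKCC1, was at 3.71 to 5.45 FPKM in novice and 5.65 to 8.53 in expert without overlap (0.51, SE 0.17). Kcnj10, the Kir4.1 potassium channel, was at 23.96 to 67.2 and 39.5 to 150 FPKM (0.84, SE 0.37), and the water channel Aqp4 at 31.2 to 57.2 and 37.9 to 138 (0.72, SE 0.32). Their partners at the endfoot and junction, Dtna, Hepacam and Gja1, were at 0.78, 0.82 and 0.76. With the silent-gene covariate the median of the list was 0.22 and 2 genes had an unadjusted p under 0.05. Slc12a2 was then at 0.41, Kcnj10 at 0.25 and Aqp4 at 0.21.

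Receptor and calcium genes were higher in 15 of 17 cases (median 0.35, 5 with an unadjusted p under 0.05). The endothelin receptor Ednrb was at 15.2 to 33.2 FPKM in novice and 30.2 to 82.7 in expert (0.85, SE 0.26). Itpr2, the main calcium release channel of astrocytes, was at 7.43 to 9.72 and 9.89 to 20.8 FPKM without overlap (0.55, SE 0.22). The purinergic receptor P2rx7 and the adrenergic receptor Adra1a were at -0.25 and -0.15. Of 28 listed genes, 11 did not reach the FPKM limit, among them Adra1b, Adrb1 and Grm5. The silent-gene covariate left 10 of 17 higher (median 0.08), and without expert 3 and 6 the median was 0.17.

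Secreted and matrix genes above the limit were higher in 13 of 15 cases (median 0.53, 6 with an unadjusted p under 0.05). The proteoglycan Bcan was at 82.7 to 157 FPKM in novice and 119 to 416 in expert (0.85, SE 0.34), its partner Hapln1 at 3.62 to 12.5 and 7.74 to 23.4 (0.76, SE 0.27), and the growth factor Vegfa at 30.7 to 43.6 and 38.2 to 129 (0.73, SE 0.28). Thrombospondins Thbs1 to Thbs4, which promote synapse formation, Bdnf, Gdnf and Igf1 did not reach the limit. Adhesion molecules and ephrins were higher in 14 of 16 cases (median 0.38), and Ncam1 alone had an unadjusted p under 0.05, at 41.6 to 62.7 and 54.5 to 128 FPKM (0.58, SE 0.24). Receptors for engulfment and their bridging proteins were higher in 10 of 12 cases (median 0.58, 6 with an unadjusted p under 0.05). Megf10, the engulfment receptor, was at 5.26 to 11.4 FPKM in novice and 9.92 to 24.6 in expert (0.71, SE 0.24), and the receptor kinase Axl at 0.61 (SE 0.26), whereas complement C3 was at -0.99 and the receptor kinase Tyro3 at -0.19. The medians with the silent-gene covariate were 0.19 for secreted and matrix genes (9 of 15 higher), 0.04 for adhesion molecules (9 of 16 higher) and 0.21 for engulfment genes (10 of 12 higher, 1 with an unadjusted p under 0.05).

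Sterol genes were higher in 23 of 23 cases (median 0.57), and 11 had an unadjusted p under 0.05. Fdft1, squalene synthase, was at 9.48 to 22.1 FPKM in novice and 22.9 to 67.8 in expert without overlap (0.97, SE 0.30). Sqle, squalene epoxidase, was at 5.52 to 13.3 and 10.1 to 37.1 FPKM (0.98, SE 0.29). The regulators Insig1, Srebf1 and Srebf2 were at 0.74, 0.66 and 0.53. With the silent-gene covariate the median was 0.21, with 21 of 23 genes higher and 3 at an unadjusted p under 0.05, and without expert 3 and 6 it was 0.34.

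Fatty acid genes were higher in 23 of 23 cases (median 0.54, 5 with an unadjusted p under 0.05, 0.11 with the covariate), led by Acsbg1, an acyl-CoA synthetase, at 40.1 to 85.8 and 68.4 to 207 FPKM (0.95, SE 0.35). Glycolysis, glycogen and lactate genes were higher in 25 of 26 cases (median 0.50, 5 with an unadjusted p under 0.05, 0.08 with the covariate). Gys1, glycogen synthase, was at 3.16 to 5.84 FPKM in novice and 5.84 to 14.1 in expert (0.82, SE 0.25), and Pygm, glycogen phosphorylase, at 7.10 to 19.9 and 16.3 to 44.8 (0.93, SE 0.32). Slc16a1, the monocarboxylate transporter MCT1, which endothelial cells also express, was at 8.59 to 16.3 and 13.5 to 30.0 (0.77, SE 0.23). In serine synthesis and transport, 6 of 7 were higher (median 0.61), with Slc1a4 at 8.55 to 16.4 and 15.4 to 55.3 FPKM (0.95, SE 0.28) and Shmt1 at -0.77. With the covariate 4 of these 7 were higher (median 0.04).

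**Figure D4:**
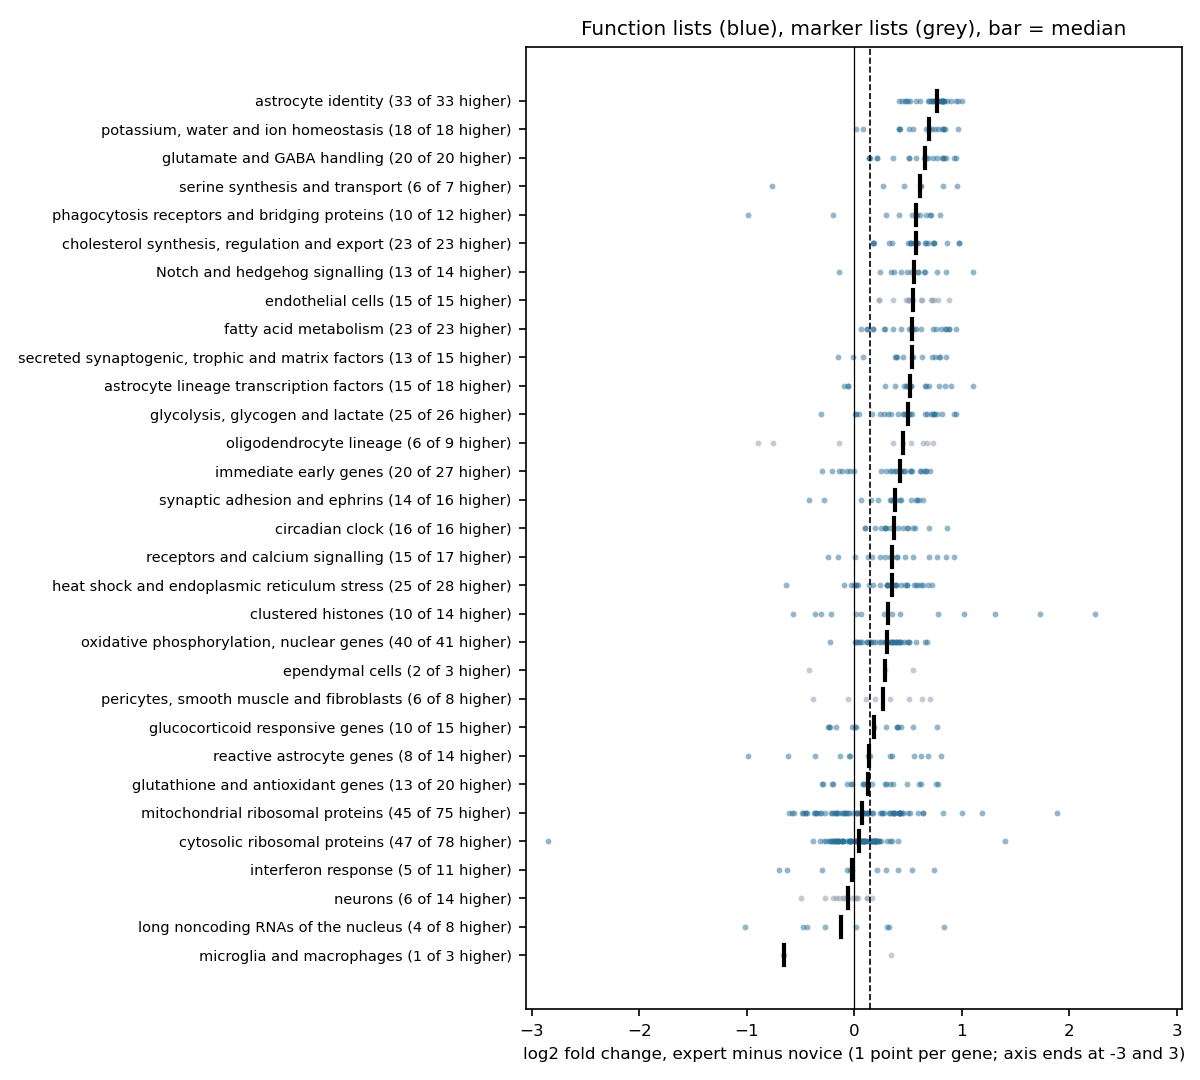
Log2 fold change of expert minus novice for each gene of 25 function lists (blue) and 6 marker lists (grey) with at least 3 genes above the FPKM limit, with the list median as a bar and the median of all 9654 genes (0.14) as a dashed line. The lists for astrocyte identity (0.77), ions and water (0.70) and transmitter handling (0.66) have the highest medians, and ribosomal proteins and neuron markers lie around 0.

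Genes of the respiratory chain were higher in 40 of 41 cases, by a median of only 0.30 and with 1 at an unadjusted p under 0.05, Ndufs7 of complex I (0.68, SE 0.29). This direction turned with the silent-gene covariate, to -0.17, and within libraries at 4 FPKM or more, to -0.08. Cytosolic ribosomal protein genes were divided, with 47 of 78 higher, a median of 0.05 and 0 at an unadjusted p under 0.05. With the covariate 76 of 78 were lower (median -0.34), and they were lower in 71 of 78 cases within libraries under 4 FPKM and in 62 of 78 within those at 4 FPKM or more. Rpl26 and Rpl30 had the most extreme folds of that list, -2.85 and 1.41, but Rpl26 ran down to 0.0076 FPKM in novice and 0.00143 in expert, and Rpl30 to 0.00109 and 0.00144. Every cell uses both genes, and ribosomal protein genes have near-identical copies, so these values are uncertain and can be failed estimates. Mitochondrial ribosomal genes were also divided (45 of 75 higher, median 0.07). Mrps16, of the small mitochondrial subunit, was at 3.65 to 12.4 FPKM in novice and 8.72 to 27.1 in expert (1.19, SE 0.33), and at 1.06 with the covariate.

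Immediate early genes, which respond to activity and to tissue handling, were higher in 20 of 27 cases, against 62.3% of all 9654 genes (median 0.42, 5 with an unadjusted p under 0.05). Jun was at 17.6 to 40.2 FPKM in novice and 27.7 to 78.6 in expert (0.71, SE 0.28), and Ier5 at 3.44 to 7.16 and 3.30 to 9.60 (0.61, SE 0.24). Fos and Egr1 were at 0.67 and 0.42, and Arc, the neuronal activity gene, at -0.30. The median was 0.73 within libraries under 4 FPKM, 0.06 within those at 4 FPKM or more and 0.11 without expert 3 and 6. With the silent-gene covariate it was 0.27, with 22 of 27 higher and 1 at an unadjusted p under 0.05 (limma).

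Clock genes were higher in 16 of 16 cases (median 0.37, 4 with an unadjusted p under 0.05). The nuclear receptor Nr1d1 was at 17.3 to 43.0 FPKM in novice and 30.9 to 87.6 in expert (0.87, SE 0.31), and Dbp at 11.3 to 25.9 and 19.97 to 43.8 (0.69, SE 0.25). The time of day at collection was not used here. Chaperone and endoplasmic reticulum stress genes were higher in 25 of 28 cases (median 0.35), with Bag3, a co-chaperone, at 4.99 to 7.40 and 8.32 to 15.5 FPKM without overlap (0.69, SE 0.21). The median of the clock genes was 0.12 with the silent-gene covariate, and that of the chaperone and stress genes 0.02 with 16 of 28 higher. Glucocorticoid-responsive genes were higher in 10 of 15 cases, with a median of 0.19 (-0.03 with the silent-gene covariate) and 0 at an unadjusted p under 0.05. Glutathione and antioxidant genes were higher in 13 of 20 cases (median 0.13, and -0.07 with the covariate).

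The direction of reactive astrocyte and interferon genes depended on the libraries compared. Gfap, the filament protein that marks reactive astrocytes, was at 8.12 to 12.9 FPKM in novice and 11.8 to 35.4 in expert (0.81, SE 0.29), and Vim and Nes were at 0.69 (SE 0.28) and 0.56 (SE 0.22). The rest of the list was mixed, with 8 of 14 higher, a median of 0.14, and Serping1 and C3 at -0.61 and -0.99. With the silent-gene covariate 11 of 14 were higher (median 0.19), within libraries under 4 FPKM 13 of 14 (median 0.63, 6 with an unadjusted p under 0.05), and within those at 4 FPKM or more 6 of 14 (median -0.06). Of 11 interferon-responsive genes 5 were higher (median -0.02, and 0.09 with the trimmed mean of M values), with Gbp3 at 0.74 (SE 0.23) and Isg15 at -0.70 (SE 0.37). With the covariate 8 of 11 were higher (median 0.21) and within libraries under 4 FPKM 8 of 11 as well (median 0.27). Clustered histone genes were higher in 10 of 14 cases (median 0.32), and Hist1h1e, a linker histone, was at 6.06 to 26.5 and 18.7 to 53.1 FPKM (1.02, SE 0.30). The median of the histone genes was 0.16 with the covariate, 0.08 without expert 3 and 6, and -0.18 with 5 of 14 higher within libraries at 4 FPKM or more. Among nuclear long noncoding RNAs, Malat1 was at 525 to 1118 and 924 to 2428 FPKM (0.84, SE 0.41), and Kcnq1ot1 at 219 to 478 and 37.7 to 439 (-1.02, SE 0.53). Kcnq1ot1 was at -0.09 with the silent-gene covariate.

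Endothelial markers were higher in 15 of 15 cases, by a median of 0.54, with 7 at an unadjusted p under 0.05. Kdr, the receptor for Vegfa, was at 0.88 and the junction genes Cdh5 and Cldn5 at 0.74 and 0.72. Their mean log2(FPKM + 1) was 3.60 to 4.74 in novice libraries and 4.24 to 5.56 in expert, with expert 6 and expert 3 the highest at 5.56 and 5.33, and novice 1 and 2 the lowest. Within libraries under 4 FPKM the median was 1.26 and 15 of 15 had an unadjusted p under 0.05, where 7.78% of all 9654 genes were higher at that level and their median was 0.05. Within those at 4 FPKM or more it was -0.04 and 0 of 15 did, and without expert 3 and 6 it was 0.25. With the silent-gene covariate the endothelial median was 0.50, with 15 of 15 higher and 5 at an unadjusted p under 0.05 (limma). Pericyte, smooth muscle and fibroblast markers above the FPKM limit were higher in 6 of 8 cases (median 0.26, and 0.39 with the covariate). Over all 13 tested, 7 were higher and the median was 0.09. Oligodendrocyte lineage markers were higher in 10 of 13 cases tested (median 0.45, 5 with an unadjusted p under 0.05). For the 9 above the FPKM limit the median was also 0.45, and 0.03 with the covariate. It was 0.01 within libraries under 4 FPKM and 0.24 within those at 4 FPKM or more. Neuron markers had a median of -0.05, of 0.06 with the trimmed mean of M values and of -0.53 with the covariate. Within libraries under 4 FPKM it was -0.91, with 0 of 14 higher and 10 lower at an unadjusted p under 0.05, where 6.22% of all 9654 genes were. Within those at 4 FPKM or more the median of the neuron markers was 0.02. Alpl, Slc16a1, Ptprm and Vim, which vascular cells also express, were higher together with the endothelial markers, and the part of vascular cells in their folds was not tested.

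**Figure D5:**
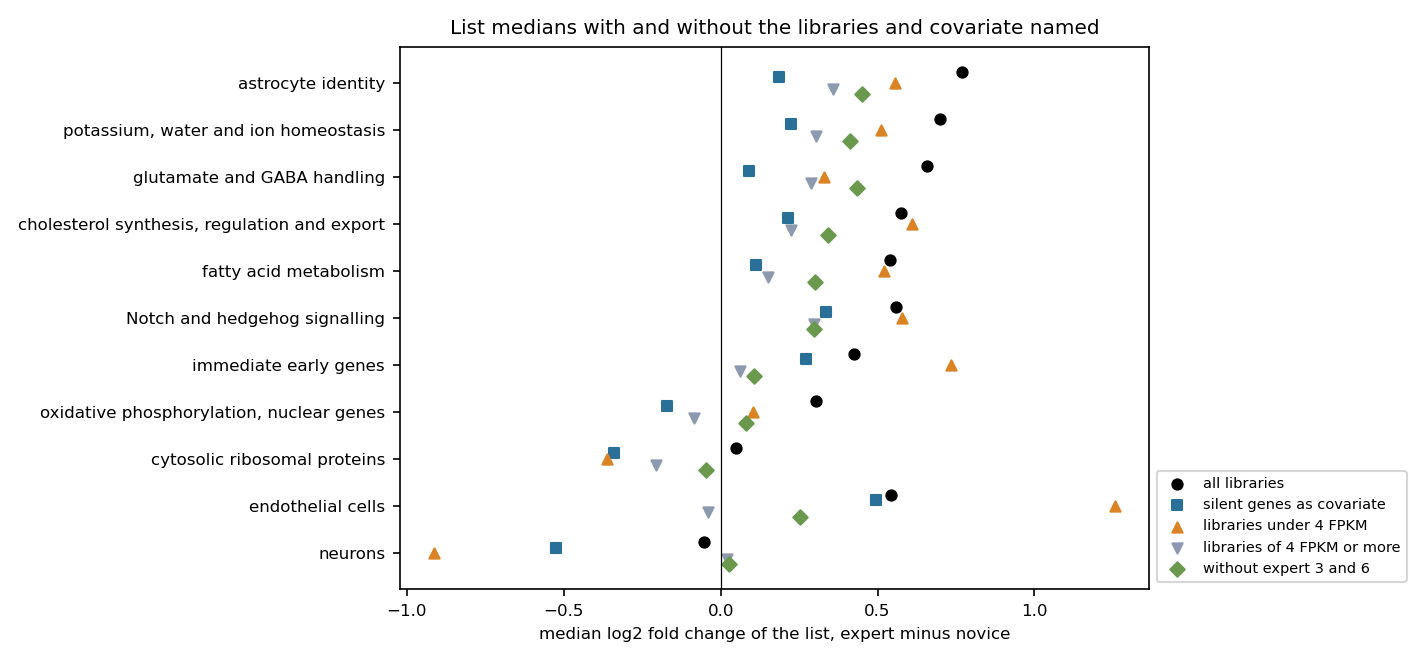
Median log2 fold change of 11 lists with all libraries (black), with the silent-gene signal as a covariate (blue squares), within libraries under 4 FPKM (orange) or at 4 FPKM or more (grey), and without expert 3 and 6 (green). The median of astrocyte identity moves from 0.77 to between 0.19 and 0.56, that of endothelial cells spans -0.04 to 1.26, and that of cytosolic ribosomal proteins is -0.36 to 0.05.

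Naive libraries usually lay between the trained groups. For 5642 of 9654 genes (58.4%) the naive mean of log2(FPKM + 1) fell between the novice and expert means, for 2251 above both and for 1761 below both. It fell between them for 12 of the 12 named higher genes with the smallest p, for 32 of 33 astrocyte identity genes and for 19 of 23 sterol genes. It was above both for 63 of 78 cytosolic ribosomal genes and for 10 of 14 neuron markers, and below both for 14 of 27 immediate early genes. For endothelial markers it was between the groups in 8 of 15 cases and below both in 7. These positions are a description, since the naive group shared the fit. The 12 genes were picked for a small p between novice and expert. A wide gap between these groups makes a naive mean inside it likely from the start, so their count adds no support. The lists differed in this gap as well. Their median log2 fold change was 0.77 for identity genes, 0.05 for cytosolic ribosomal genes and -0.05 for neuron markers. A naive mean between the groups was thus likelier in the first list than in the other lists, and no contrast between lists is drawn from these counts. The mean silent-gene signal also lay between the trained groups in naive libraries, at 3.71 FPKM against 4.69 in novice and 2.97 in expert. The part of that signal in these positions was not tested.

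Many of the small p-values depended on single libraries. Of the 962 higher and 344 lower genes with an unadjusted p under 0.05, 316 and 65 stayed under it whichever 1 of the 12 libraries was left out. Without expert 3 alone 390 and 89 did, without expert 3 and 6 135 and 36, and with the silent-gene covariate 302 and 59. Age overlapped between the groups at 13 weeks only. With age as a covariate 478 and 122 genes kept an unadjusted p under 0.05, and training stage and age were confounded in part.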

How the data were processed

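Total RNA of motor cortex astrocytes was recovered by proteinase K digestion and a silica column, made into libraries with the SMARTer Stranded Total RNA-Seq kit and read on an Illumina HiSeq, per the labels' protocols. The submitters' processing notes name TopHat, Cufflinks and mm9. Their versions and options, the annotation and any scaling between libraries are not stated there. The authors deposited FPKM values for 23951 entries in 18 libraries. The upper quartile was 8.20 to 8.89 FPKM in every library. Of the entries, 27 with names turned into dates were left out. Read totals are not part of the values. Depth was read from the smallest values of 119 olfactory receptor genes with a single GENCODE transcript.

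The 21745 genes that reached 1 FPKM in 6 or more of the 18 libraries were fitted as log2(FPKM + 1) with limma 3.58.1 in R 4.3.3 (lmFit, eBayes with trend), 1 mean per group, 2-sided, with Benjamini-Hochberg adjustment and a threshold of 0.05. Fold changes on this scale understate those of low genes. Effects of other settings are in the closing section. The script was tested on simulated data.

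Gene lists (25 of function, 7 of markers) and the genes of the comparison were chosen with earlier results of these data known. Named genes are, for each direction, the 12 of smallest p, leaving out predicted loci and olfactory receptors, the 3 with the smallest p in each function list, and Slc1a2, Slc1a3, Gja1, Aqp4, Kcnj10, Glul, Aldh1l1 and Gfap. A gene that this rule names is not reported here. Other list members were picked as examples after their values were seen. No 2 libraries held identical values, and the highest correlation was 0.91. Replicate numbers did not pair libraries. Promoter letters are from RefSeq (GRCm38.p6), not the build of the values, and 11 of 14 genes had an entry.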

Additional observations from a re-analysis of the deposited data

Results flagged for a closer look

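Among 206 sets of 6 values (103 named genes in novice and in expert), 13 had a highest or lowest library farther from its neighbour than Dixon's limit allows. Chance gives about 1 in 20 such flags, and 5 of the 13 were in expert 3, the library with the lowest silent-gene signal. In expert 3, Tulp3 was the highest of its group at 16.4 FPKM, Megf10 at 24.6 and Phgdh, the first enzyme of serine synthesis, at 65.2, while Snora33 was the lowest at 77.5 FPKM and Snhg11 at 11.3. In expert 5, Ier5 was the lowest at 3.30 FPKM and Mrpl55 at 5.84, and in expert 1 Hist1h4d was the lowest at 4.43.

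In the novice group, Snora33 was at 376 FPKM in novice 4 and at 0 in the other 5 libraries, and Rpl26 was the lowest in novice 4, at 0.0076 FPKM. Krt12 was lowest in novice 2 at 3.76 FPKM and Dnajb9 highest there at 14.9. Btbd7 was highest in novice 6, at 8.87 FPKM.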

How the results depend on the processing

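The count of 0 genes with an adjusted p under 0.05 held under 29 of 31 alternatives. The exceptions were the libraries of mice aged 13 weeks (4 novice, 2 expert), with 6 genes (Defb13, Mir340, Scarletltr, Snord89, Tstd1 and Wfdc17), and the libraries with a silent-gene signal of at least 4 FPKM, with 5 (Mir1892, Mir3093, Mir6541, Snora28 and Snora36b). The cause was not tested. By the exact rank-sum test 0 genes passed (smallest adjusted p 0.470). The counts of genes with an unadjusted p under 0.05 (962 higher, 344 lower) were 355 and 161 with the silent-gene covariate, 524 and 162 with age as a covariate, 2071 and 1400 with array weights, 70 and 55 in libraries of at least 2 FPKM silent-gene signal, 351 and 337 at 13 weeks, 643 and 198 without novice 1 and 3, and, chosen after seeing the data, 751 and 600 under 4 FPKM, 245 and 195 at 4 FPKM or more and 141 and 47 without expert 3 and 6. Leaving out 1 library gave 393 (expert 3) to 1465 (expert 4) higher and 95 (expert 3) to 1103 (expert 4) lower. Without expert 6 they were 524 and 163, without novice 5 634 and 155, without expert 2 688 and 182, without expert 5 1192 and 772, without novice 2 1246 and 650, without novice 3 647 and 168, without novice 4 682 and 181, and without novice 6 777 and 194. Quantile normalization gave 80 genes with all expert above all novice libraries. The median over the 9654 genes (0.14) was 0.26 with the trimmed mean of M values, 0.0122 with the silent-gene covariate, 0.0163 at 2 FPKM or more, 0.0452 under 4 FPKM, 0.036 at 4 FPKM or more and 0.0536 without expert 3 and 6, and 0.10 to 0.22 when 1 library was left out.

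Among named genes the direction turned for Uqcrc2 (-0.0842), Nfkbia (-0.077), Nes (-0.14) and Snhg11 (0.0218) at 4 FPKM or more, for Hist1h4d (-0.0899) under 4 FPKM, and for Rpl26 (1.77) and Rpl30 (-0.06003) at 13 weeks. The libraries under 2 FPKM could not be compared, since 0 were novice. Same-numbered libraries correlated between -0.27 and 0.62 in their deviations, and not every library matched best with its own number. With the replicate number as a block, 0 genes passed (smallest adjusted p 0.087) and 1109 and 576 had an unadjusted p under 0.05. At 5 FPKM a transcript of 1 kb rested on 2.90 to 17.4 fragments, which limits the precision of low genes most.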

Other observations

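A second band of genes ran below the main cloud. Of genes with a mean of at least 20 FPKM, 456 had a log2 fold change between -1.5 and -0.5, with a median of -0.89, and their median was -0.03 with the silent-gene covariate. They were picked by that range of fold change, so a median of -0.89 inside it was fixed in part from the start. The 67 silent-family genes that passed the FPKM limit had a median of -0.84, and -0.01 with the covariate, and 66 of them were lower in expert. They are part of the silent-gene signal, which was lower on average in expert and forms the covariate. Their direction and their smaller fold with the covariate thus follow in part from that signal and add no support. Both sets of genes were grouped after their values were seen.

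Transcripts typical of the liver were measured in every novice and expert library. Apoa1 and Apoa2, the main apolipoproteins of high-density lipoprotein, were at 13.7 to 230 FPKM and 30.1 to 389 FPKM in novice, and at 17.9 to 127 and 25.0 to 259 in expert. Fgb, a fibrinogen chain, was at 15.7 to 107 and 8.89 to 93.6 FPKM, and Cyp2e1, a liver cytochrome, at 30.6 to 205 and 22.0 to 128. The groups overlapped in each, and the log2 fold changes were -0.82 for Apoa1, -0.84 for Apoa2, -0.96 for Fgb and -0.89 for Cyp2e1. With the silent-gene covariate these were -0.67, -0.68, -0.82 and -0.60. Over 7 such genes, all lower in expert, the median was -0.96 and, with the covariate, -0.68, where Crp, the C-reactive protein, was closest to 0 at -0.24. Of the 7, Apoc3 and Crp had an unadjusted p under 0.05 and none an adjusted p under 0.05 (limma). The genes were picked after their values were seen, and the source of the transcripts was not tested.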
